A study of Mus musculus with 8 samples.

Results

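The regions described here were called in 1 chromatin immunoprecipitation library only: they hold a called peak of the second of 3 libraries taken 34 h after differentiation was induced, and none of the other 5 libraries of the study has a peak that overlaps them. Peaks of the 6 libraries on chromosomes 1 to 19, X and Y were merged where they shared at least 1 bp, which gave 5567 regions, and 2723 of these were selected by that presence and absence alone. They make up 54.62% of the 4985 regions of 34 h replicate 2. Each member is a single peak of that library.

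The study set 34 h against 14 h of differentiation in C2C12, a mouse myoblast line that withdraws from the cell cycle and fuses into myotubes once serum is reduced to 2% horse serum. Each time had 3 libraries immunoprecipitated (IP) with polyclonal rabbit antibodies raised to APOBEC2, beside 1 input, and no genotype is given by the labels other than that of the line itself. The names of the deposited peak lists carry a tag, GFPsh, that the labels do not explain, and the growth protocol gives 24 h where the titles give 14 h, so the earlier time is uncertain. No library with another antibody or from cells without APOBEC2 was analysed here, and nothing in the labels says that replicates came from separate cultures, so tests between libraries measure a spread that may be technical. Peak lists do not show which genes the cells express, and the labelled cell type was not checked against marker expression.

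APOBEC2 is a member of the cytidine deaminase family that also holds AID and the other APOBEC proteins, and it is found mainly in skeletal muscle and heart. Several relatives act on RNA or DNA, and no such activity is established for APOBEC2. Many genes that a dividing myoblast switches off on differentiation share promoter elements: E2F factors bind sites near TTTCCCGC, and the cell cycle genes homology region (CHR), read here as TTTGAA, is bound by the DREAM and MuvB complexes. GC boxes, bound by SP and KLF factors, and the CCAAT box, bound by the trimer NF-Y, are common in promoters of genes that most cells express.

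Bases before annotated start sites, at the members with the highest fold and the only members at cell cycle genes, are printed. They show the elements that the later counts refer to. The 250 bases before the start site are from RefSeq on GRCm38.p6, 5′ to 3′ on the strand of the gene, with GC boxes (GGGCGG) and CCAAT boxes, each on either strand, in capitals. The stretches shown for all 7 genes were also searched for the E2F and CHR elements, of which they held 0. A gene can have more than 1 start site, and the bases before 1 of them are shown for each. At E2f1, a peak found in 4 libraries (chr2:154569658-154570019) reaches further upstream than the bases shown. The 0 for E2f1 therefore covers this stretch only, not every promoter of the gene. Most of the E2f1 stretch can be read as codons with no stop, so it may be coding sequence rather than a promoter. Psmb6 (chr11:70525107-70525356, plus strand), the gene of a catalytic proteasome subunit, and Cabin1 (chr10:75764358-75764607, minus strand), of a calcineurin inhibitor, lay under the members of highest fold at a promoter. Eif4b (chr15:102073523-102073772, plus strand), of a cofactor of the initiation helicase, had the highest fold among translation factors. Summits lay 88 bases before the Psmb6 start site, 15 before that of Cabin1 and 36 before that of Eif4b.
Psmb6: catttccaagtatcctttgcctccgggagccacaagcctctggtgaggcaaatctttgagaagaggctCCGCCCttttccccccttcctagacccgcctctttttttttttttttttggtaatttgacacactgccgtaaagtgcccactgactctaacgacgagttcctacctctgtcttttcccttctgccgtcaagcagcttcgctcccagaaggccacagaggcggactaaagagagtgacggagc
Cabin1: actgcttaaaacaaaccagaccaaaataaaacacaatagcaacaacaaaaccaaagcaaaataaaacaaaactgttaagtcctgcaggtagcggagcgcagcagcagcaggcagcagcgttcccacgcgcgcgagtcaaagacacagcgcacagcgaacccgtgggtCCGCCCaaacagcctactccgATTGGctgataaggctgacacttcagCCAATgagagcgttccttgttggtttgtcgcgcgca
Eif4b: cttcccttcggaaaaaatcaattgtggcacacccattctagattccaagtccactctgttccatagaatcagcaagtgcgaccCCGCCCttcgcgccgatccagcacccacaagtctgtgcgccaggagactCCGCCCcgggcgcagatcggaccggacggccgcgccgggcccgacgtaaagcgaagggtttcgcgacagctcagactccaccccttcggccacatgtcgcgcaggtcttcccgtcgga

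Pcna (chr2:132253181-132253430, minus strand), the sliding clamp of DNA polymerases, and E2f1 (chr2:154569427-154569676, minus strand), a factor that drives entry into S phase, were the cell cycle genes with a member. For contrast, Ttk (chr9:83834439-83834688, plus strand) and Bub1 (chr2:127831860-127832109, minus strand), kinases of the spindle checkpoint, lay under regions found in all 6 libraries.
Pcna: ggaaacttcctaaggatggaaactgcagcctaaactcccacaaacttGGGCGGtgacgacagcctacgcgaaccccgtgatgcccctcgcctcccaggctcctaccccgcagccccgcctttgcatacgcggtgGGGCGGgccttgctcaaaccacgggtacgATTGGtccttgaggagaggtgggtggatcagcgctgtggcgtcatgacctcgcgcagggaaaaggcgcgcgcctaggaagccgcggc
E2f1: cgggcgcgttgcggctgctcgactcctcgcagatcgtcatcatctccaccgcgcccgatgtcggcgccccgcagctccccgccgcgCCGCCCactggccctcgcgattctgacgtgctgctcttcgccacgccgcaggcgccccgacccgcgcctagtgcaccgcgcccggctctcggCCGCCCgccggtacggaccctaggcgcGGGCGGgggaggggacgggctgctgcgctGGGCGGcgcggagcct
Ttk: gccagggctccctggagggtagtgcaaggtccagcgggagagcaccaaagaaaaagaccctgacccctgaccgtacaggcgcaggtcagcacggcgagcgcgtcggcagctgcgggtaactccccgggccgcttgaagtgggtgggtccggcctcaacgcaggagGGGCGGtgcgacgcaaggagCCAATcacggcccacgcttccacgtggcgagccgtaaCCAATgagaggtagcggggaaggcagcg
Bub1: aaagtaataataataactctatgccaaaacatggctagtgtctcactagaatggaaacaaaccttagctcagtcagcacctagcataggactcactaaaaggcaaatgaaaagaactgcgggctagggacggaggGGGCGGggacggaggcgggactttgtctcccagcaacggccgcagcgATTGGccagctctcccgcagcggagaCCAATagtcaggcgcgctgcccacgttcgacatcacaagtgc
Among the 5 stretches at members, Psmb6 held 1 GC box and Eif4b held 2, both with no CCAAT box. The E2f1 stretch, which may be coding sequence, held 4 GC boxes and no CCAAT box. Cabin1 held 1 GC box and 2 CCAAT boxes, and Pcna held 2 GC boxes and 1 CCAAT box. Ttk and Bub1 each held 1 GC box and 2 CCAAT boxes.

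The list of 34 h replicate 2 stood apart from the others in length. It held 5025 deposited peaks, against 2209 and 1068 in 34 h replicates 1 and 3 and 768, 1327 and 797 in 14 h replicates 1, 2 and 3. Regions found in 1 library only numbered 2723 there, 244 and 47 in 34 h replicates 1 and 3, and 24, 168 and 18 in 14 h replicates 1, 2 and 3. As a share of a library's own regions this was 54.62% in 34 h replicate 2, and 2.356% to 13.11% in the other 5. Depth was estimated from the lowest background among called peaks and the narrowest peak, not from read totals. Relative to 14 h replicate 1 it was 1.07 in 34 h replicate 2 and lay between 0.985 and 1.17 in all 6. The narrowest peak, which marks the fragment length the caller used, was 187 bp in 34 h replicate 2 and 136 to 169 bp in the others. The lowest −log10 q kept was 2.03 there and 1.58 to 2.90 elsewhere. The part of depth, fragment length and threshold in the length of the list was not tested.

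**Figure D1:**
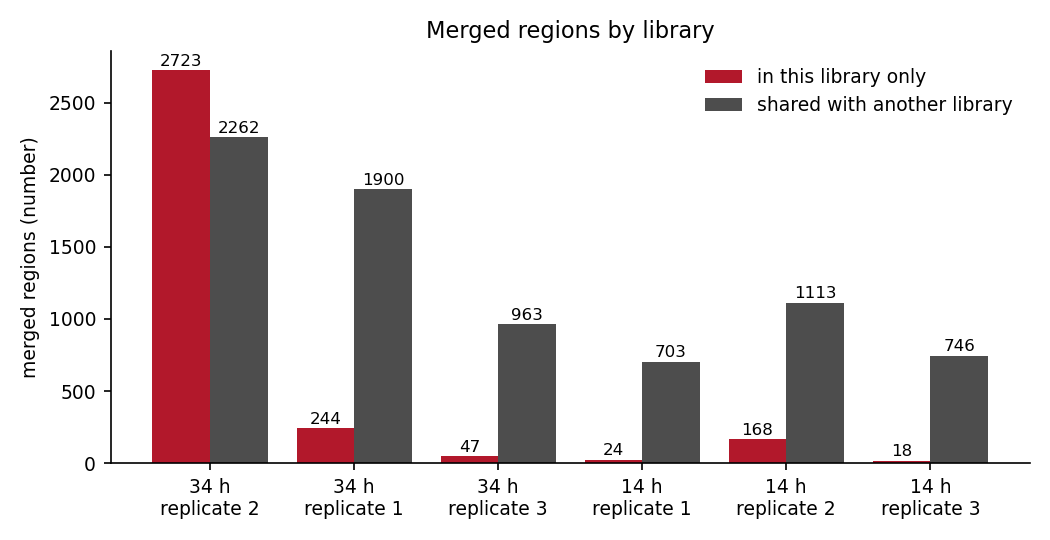
Number of merged regions of each IP library that were in that library only (red) or shared with at least 1 other library (grey), with 34 h replicate 2 at the left. The 2723 regions of 34 h replicate 2 alone exceed the 2262 it shares, whereas in every other library the shared regions are the more numerous.

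Members were weaker peaks than those the same library shared. These values come from the peak calling that chose the members, so they are given with no test. The authors' fold, the peak caller's ratio of IP to local background, had a median of 5.26 over members (quartiles 4.69 and 6.04, range 2.37 to 18.6), against 6.71 over the 2296 shared peaks of the library (quartiles 5.46 and 8.85, highest 42.2). Median −log10 q was 6.62 in members and 11.7 in shared peaks. Members were also narrower, with a median width of 231 bp against 333 bp, and stood on a median of 19 fragments at the summit against 25. The background under the summit was the same, with a median of 2.73 fragments in both. Member summits held at least 10 fragments, and counts of that size limit how precisely each fold is known.

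**Figure D2:**
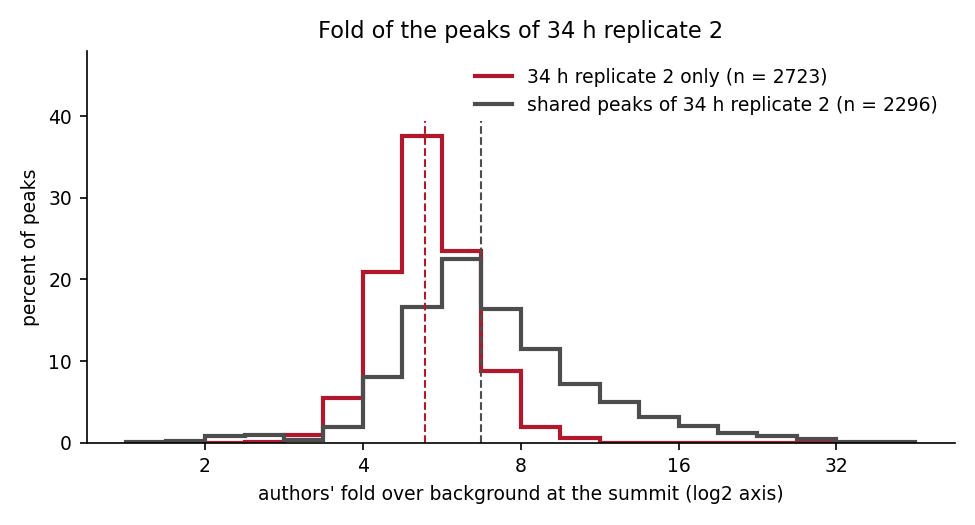
Percent of peaks of 34 h replicate 2 in bins of the authors' fold (log2 axis) for the 2723 members (red) and the 2296 shared peaks (grey). Dashed lines mark the medians, 5.26 and 6.71, and shared peaks form the tail to the right.

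With the 5019 peaks of the library sorted by fold into 5 parts of equal size, members made up 72.3% of the lowest part, 73.5%, 63.9% and 47.7% of the next, and 13.8% of the highest. Ranked by significance, the 765 strongest peaks of 34 h replicate 2, as many as 14 h replicate 1 listed, held 38 members (4.97%). The strongest 2202, as many as 34 h replicate 1 listed, held 650 (29.5%). Most members ranked below these. With each of the 6 lists limited to its 765 strongest peaks, 136 regions were only in 34 h replicate 2. Shared peaks were themselves most often found in few libraries: 1079 of 2296 (47.0%) lay in regions of 2 libraries and 438 (19.1%) in regions of all 6.

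The rule bars overlap with a peak of another library, so distances to such peaks are given without a comparison. The median distance from a member to the nearest peak of another library was 146349 bp, and 130 of 2723 (4.77%) had such a peak within 500 bp. At the edge of the rule, the nearest members lay 4 bp from another library's peak in Lnpep (fold 5.28), 17 bp in Zranb1 (fold 5.73) and 18 bp in a region of chromosome 4 with no gene (fold 5.20). The regions left out with the smallest overlap shared 1 bp with another library's peak at Ap2a1 and Tsks (fold 5.46), 7 bp at Syne1 (fold 5.79) and 7 bp at Gna12 (fold 5.08). The folds on either side of the rule were alike.

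The highest fold of all members was at Apobec1, the gene of the deaminase that edits apolipoprotein B mRNA and a relative of APOBEC2. The member at chr6:122581342-122581808 had a fold of 18.6 and stood on 43 fragments over a background of 1.36. A member at chr6:122580579-122580917 had a fold of 10.2, and another at chr6:122578706-122579020 had a fold of 9.64. These 3 members lay within 3103 bp of each other. Apobec1 is read from the minus strand, and they lay between 914 and 4016 bp from the end of the gene, far from its start. The other 5 libraries had 0 peaks in the gene or within 1 kb of it. Exons and introns were not told apart here.

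Other members of high fold lay inside genes of varied roles. A member inside Dis3l2, an exoribonuclease that degrades uridylated RNA, had a fold of 10.7. Tgif1, a homeodomain co-repressor of TGF-beta responses, held a member of fold 10.5. Members inside Ift46 and Rpgrip1l, which build and gate cilia, had folds of 10.1 and 10.0, and the Rpgrip1l member stood on 50 fragments over a background of 4.09. Outside genes, the highest member was at chr13:52154981-52155643, with a fold of 11.3 on 38 fragments, 306505 bp from the nearest protein-coding gene, Gadd45g. A member at chr7:83572395-83572802, 12101 bp from Tmc3, had a fold of 10.2, as had a member at chr18:54698970-54699253, 188791 bp from Zfp608. A member at chr4:34522888-34523219, 27395 bp from Akirin2, had a fold of 9.71.

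Some genes held several members. Counting any overlap with the gene, 1636 protein-coding genes held 1 member, 131 held 2, 25 held 3 and 3 held 4. The last were Ncam1, a cell adhesion molecule of myoblasts and neurons (297.3 kb), Frmd4a, a scaffold of cell polarity (596.4 kb), and Hdac4, a histone deacetylase that represses MEF2 factors in muscle (266.9 kb). Folds of the 4 members of Ncam1 were 6.76, 4.33, 5.74 and 6.30, and the same library had 3 shared peaks in that gene. The members of Frmd4a had folds of 5.37, 5.92, 5.50 and 4.54, and those of Hdac4 had 4.31, 5.67, 4.96 and 4.31, with 0 shared peaks in either gene. Apobec1 (25.23 kb) and Scaf8, a binder of the RNA polymerase II tail (83.89 kb), had the highest summed fold among genes with 3 members. The folds in Scaf8 were 8.58, 5.04 and 8.62. Long genes have more room for peaks, and counts were not scaled by length.

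Members lay away from gene boundaries more often than shared peaks did. A boundary was the stretch within 1 kb of either limit of a protein-coding gene. Of the 2723 members, 1198 (44.0%, exact 95% interval 42.1% to 45.9%) lay at a boundary, 816 (29.97%) inside a gene and 709 (26.04%) outside genes. The shares over the 2296 shared peaks of the library were 67.38%, 16.33% and 16.29%. Intervals cover counting error only. Where strand was known, 40.1% of members and 59.63% of shared peaks had a summit within 1 kb of a start site, and 2.64% and 3.18% had one within 1 kb of a gene end. The median distance to a start site was 10892 bp for members and 223 bp for shared peaks.

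The same comparison was made within each of the 6 libraries, between the peaks found in that library alone and those it shared. The share at a boundary was 44.0% against 67.38% in 34 h replicate 2, 50.0% against 65.22% in 34 h replicate 1 and 61.7% against 70.15% in 34 h replicate 3. At 14 h it was 70.83% against 78.0% in replicate 1, 79.17% against 80.99% in replicate 2 and 72.22% against 80.93% in replicate 3. Library-only peaks were lower in 6 of 6 libraries and their gap was widest in 34 h replicate 2. Over libraries the share averaged 62.99% ± 13.7 in library-only peaks and 73.78% ± 7.05 in shared peaks (SD, n = 6), a difference of −10.79 ± 7.50 percentage points. An exact two-sided sign-flip permutation test gave p = 0.03125, the smallest that 6 libraries allow. Shared regions enter more than 1 library, 428 of them all 6, so the 6 differences are not independent and the p is only a guide. Given equal weight in each of 5 fold parts, the difference was −4.557 points, lower in 4 of 6 libraries (exact sign-flip p = 0.34375), so the call did not hold with this weighting. Library-only peaks were higher in 14 h replicates 1 (67.49% against 66.95%) and 2 (85.26% against 76.13%), and lower in every 34 h library. Fold parts that lacked library-only or shared peaks were left out, and libraries with few library-only peaks fill the parts sparsely. The call was also lost with a window of 5 kb and with peaks limited to a −log10 q from 5 upward.

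In 34 h replicate 2 itself, the share at a boundary hardly moved with fold among members. It was 43.4%, 43.8%, 44.2%, 44.5% and 46.0% in members from the lowest to the highest of the 5 fold parts, against 50.7%, 64.7%, 61.1%, 67.8% and 76.0% in shared peaks of the same parts. Members were below shared peaks in each part, and the exact 95% intervals overlapped only in the lowest part. Being 1 library, this has no replicate test.

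**Figure D3:**
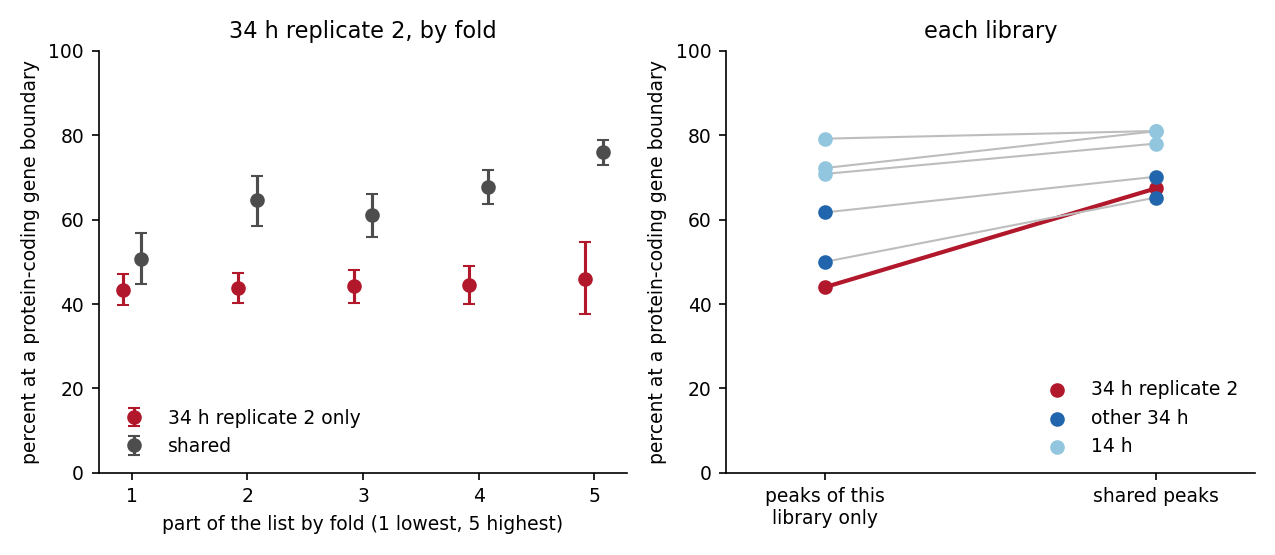
Left, percent of members (red) and of shared peaks (grey) of 34 h replicate 2 at a protein-coding gene boundary in 5 parts of its list by fold, with exact 95% intervals. Right, the same percent in each of the 6 libraries for peaks of that library only and for shared peaks, joined by a line. Members stay between 43.4% and 46.0% at every fold, and the line of 34 h replicate 2 is the steepest.

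Genes with a member at a boundary numbered 1368 of 21887 protein-coding genes (6.25%), and genes with a shared peak of the same library there numbered 1832 (8.37%). Both occurred at 116 genes, and 138 of the 1368 (10.1%) had a peak of another library at a boundary. A boundary member touched 2 or more genes in 228 of 1198 cases (19.03%), so a region between a pair of genes is counted for each. The gene lists that follow were chosen with results of these data known, and their counts are read against 6.25% with no test of any list. The number in brackets after a gene is the authors' fold of its highest member at a boundary.

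Among 69 translation factors, 23 (33.3%, exact 95% interval 22.4% to 45.7%) had a member at a boundary, whereas 4 (5.80%) had a shared peak. The highest folds were at Eif4b (8.17), at Eif4e (7.12), the cap-binding protein, and at Eef1g (7.01), a subunit of the elongation complex that reloads eEF1A, whose region also touches Tut1. Eif2ak1 (6.93) encodes a kinase that lowers initiation through eIF2, and Eif4g2 (6.70) a scaffold for cap-independent initiation. Folds over the 23 ranged from 3.74 to 8.17 with a median of 5.34, close to the 5.30 over all 1368 genes.

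The other lists of protein synthesis gave smaller shares. Cytosolic ribosomal proteins had a member at 13 of 82 genes (15.9%) and a shared peak at 9. Rpl30 (6.00), Rpl13a (5.61) and Rpl36 (5.56), whose region also touches Micos13, were highest. With peaks limited to a −log10 q from 5 upward, 8 ribosomal protein genes had a member, and among the 21 with no coding neighbour within 5 kb 1 did (4.76%, against 4.36% over all such genes). Aminoacyl-tRNA synthetases, which charge tRNAs, had a member at 8 of 39 (20.5%) and a shared peak at 10, with Ears2 (7.51), Qars (6.97) and Kars (6.20) highest, each of them over a region that also touches a neighbouring gene. Mitochondrial ribosomal proteins had a member at 10 of 78 (12.8%) and a shared peak at 12. Mrpl30 (7.46), whose region also touches Mitd1, was highest.

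Genes of protein folding and breakdown were also found. Proteasome subunits had a member at 11 of 44 genes (25%) and a shared peak at 4 (9.09%). Psmb6 had a fold of 10.99 on 31 fragments over a background of 1.91. Psmd4 (8.04) encodes a ubiquitin receptor, Sem1 (7.68) and Psmd12 (6.11) parts of the lid, and Psmd10 (7.10) an assembly chaperone. No proteasome gene had both kinds of peak, but over all genes only 116 of the 1368 with a member did. Cytosolic ribosomal proteins and the spliceosome core also had 0 such genes. Heat shock proteins and chaperonins had a member at 15 of 60 (25%) and a shared peak at 17, led by Hspb1 (6.72), Stip1 (6.48), which links Hsp70 to Hsp90, and Cct8 (6.45), a chaperonin subunit. Hspa5 (5.77) encodes the main Hsp70 of the endoplasmic reticulum.

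RNA processing and chromatin genes carried members beside many shared peaks. SR proteins and hnRNPs, which steer splicing, had a member at 12 of 45 (26.7%) and a shared peak at 16, with Hnrnpk (7.99), Srsf5 (7.68) and Srsf6 (7.57) highest. Both kinds of peak lay at 4 of the 12, against 116 of the 1368 genes with a member. When a peak of another library within 500 bp also counted as present, 8 had a member (17.8%, against 5.76% over all genes). Spliceosome core genes had a member at 10 of 59 (16.95%) and a shared peak at 18, led by Snrpa (8.46). The Hnrnpk region also touches Rmi1, and that of Snrpa also touches BC024978. Replication-dependent histones had a member at 18 of 58 (31.0%) and a shared peak at 29, but 13 regions account for the 18 genes, since neighbouring histone genes share a region. H4c4 (7.20) and H4c3 (6.98) were highest. Chromatin modifiers had a member at 5 of 43 (11.6%) and a shared peak at 10, with the demethylase gene Kdm4a (7.17) and Jarid2 (6.72), a partner of PRC2, highest. The exact interval for these 5 ran from 3.89% to 25.1% and included the share over all genes.

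Energy and signalling lists followed. Oxidative phosphorylation genes had a member at 13 of 76 (17.1%) and a shared peak at 6, and the complex I gene Ndufs7 (7.80) was highest. Immediate early genes had a member at 8 of 42 (19.05%) and a shared peak at 5, led by Gadd45b (6.94), Klf2 (6.57), Ier3 (6.48) and Jun (6.09). In the TGF-beta and BMP pathway, whose signals hold back myoblast differentiation, 7 of 41 genes (17.1%) had a member and 1 had a shared peak. They were the ligand gene Tgfb3 (5.70), the receptor genes Bmpr1a (5.46) and Acvr2a (5.35), the mediators Smad2 (8.53), Smad3 (5.37) and Smad5 (5.20), and the inhibitor Smad7 (4.44).

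Members lay at 2 of 52 cell cycle genes (3.85%, exact 95% interval 0.469% to 13.2%, which includes the 6.25% over all genes), whereas shared peaks of the same library lay at 45 (86.5%). The Pcna member had a fold of 8.20 on 26 fragments at a region that also touches Cds2, and lay 194 bp from a shared peak of fold 14.5 found in 6 libraries. The E2f1 member had a fold of 6.34 on 18 fragments and lay 5 bp from a shared peak of fold 7.09 found in 4 libraries. When a peak of another library within 500 bp also counted as present, 0 cell cycle genes had a member.

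The list of muscle contraction and differentiation had a member at 5 of 58 genes (8.62%, exact 95% interval 2.86% to 18.98%, which includes the background) and a shared peak at 3. The 5 with a member included Mylpf (6.46), a fast light chain of myosin whose region also touches Tbc1d10b. Jph1 (5.63), which joins the sarcoplasmic reticulum to T-tubules, Mybpc1 (4.32) and Chrna1 (4.15), an acetylcholine receptor subunit, followed. The last was Myom1 (4.03), whose region also touches Myl12a of the cytoskeleton list. Myogenic transcription factors had a member at 3 of 22 (13.6%) and a shared peak at 4. The 3 were Eya1 (4.69), Tcf4 (4.59) and Id3 (4.53), which binds E proteins and keeps them from MyoD. The interval for these 3 ran from 2.91% to 34.9% and included the background.

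The other lists held structural genes and genes of other lineages. Collagen and matrix genes had a member at 2 of 50 (Tnc 5.50 and Fn1 4.82) and a shared peak at 2. The cytoskeleton had a member at 5 of 50 (10.0%) and a shared peak at 13. Cnn2 (6.05) and Tubg1 (4.83) were highest there, and their regions also touch Abca7 and Retreg3. The interferon and inflammatory list had a member at 1 of 37, B2m (4.52), and a shared peak at 2. The haematopoietic list had a member at 1 of 29, Runx1 (5.05), and a shared peak at 0. Neural lineage genes had 0 of 30, adipogenic, cartilage and bone genes 0 of 28 and olfactory receptors 0 of 1110, which allows an exact upper limit of 11.6%, 12.3% and 0.332%. The 6.25% over all genes includes the 1110 olfactory receptors and was not matched for promoter type. Median GC content was 62.67% in promoters under members and 56.33% in all promoters. Of the 23 lists, 16 had a larger share of genes with a member than this unmatched 6.25%. Among these 16, the exact interval still included 6.25% for chromatin modifiers (3.89% to 25.1%) and the cytoskeleton (3.33% to 21.8%). It also did so for muscle contraction and differentiation and for myogenic transcription factors. For mitochondrial ribosomal proteins the interval began at 6.32%, barely above the share over all genes. Genes of 1 library are not replicates, so an interval above 6.25% is no test of a list either.

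**Figure D4:**
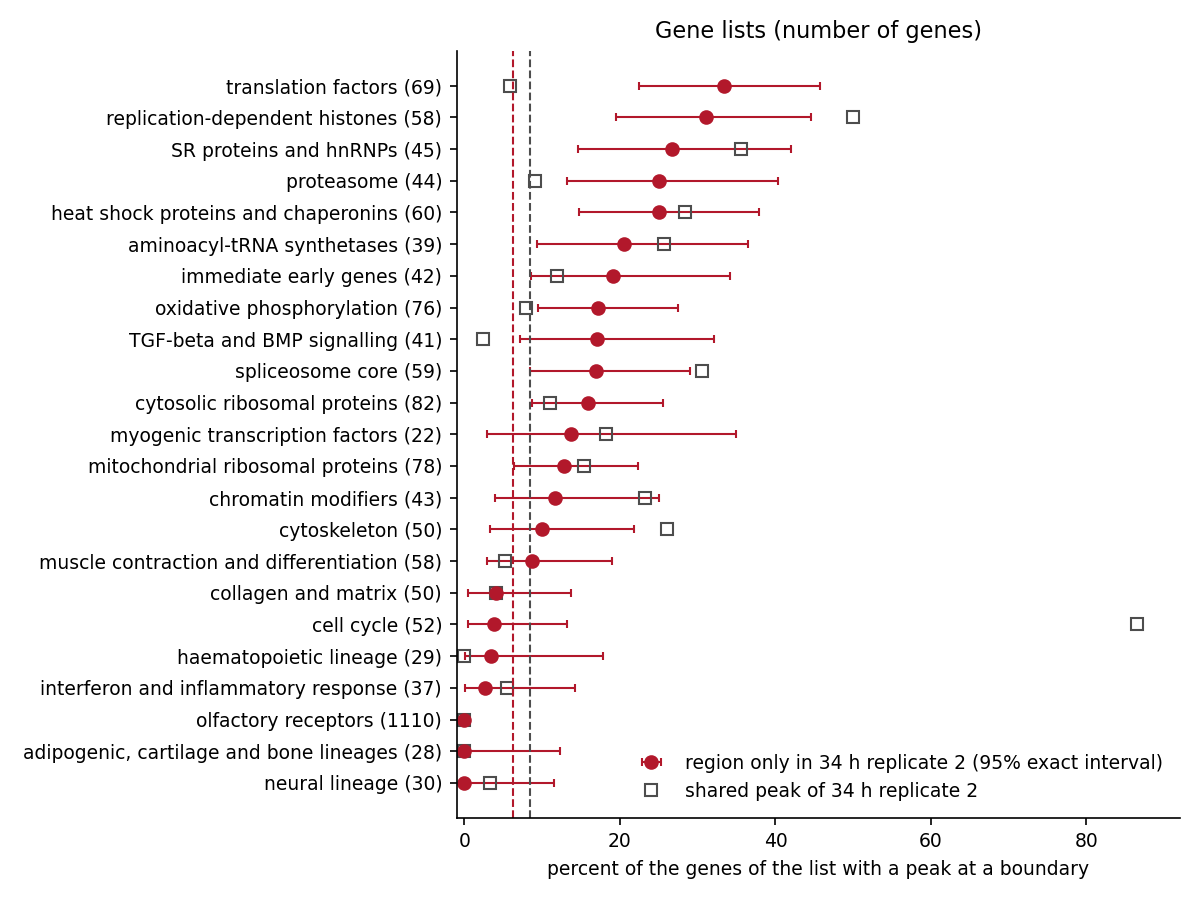
Percent of genes of each list with a member at a boundary (red, exact 95% interval) and with a shared peak of 34 h replicate 2 (open squares), with the number of genes in brackets. Dashed lines are the percent over all protein-coding genes, 6.25% (red) and 8.37% (grey). Translation factors lie at 33.3% for members against 5.80% for shared peaks, and cell cycle genes at 3.85% against 86.5%.

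Beside Psmb6 and the Apobec1 member of fold 9.64, the highest members at a boundary were at Cabin1 (10.0), Grk6 (9.94), a kinase of G protein-coupled receptors, and Sesn3 (9.67), a stress protein that restrains mTORC1. They were followed by Zfp964 (9.26), a zinc finger gene, Mon1b (9.24), a subunit of a Rab7 activator, Nlk (9.21), a kinase of the Wnt pathway, Ier3ip1 (9.06) and Pik3ca (8.71), the catalytic subunit of phosphatidylinositol 3-kinase. Their summits stood on 22 to 32 fragments.

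Of non-coding genes, tRNA genes lay within 100 bp of 28 members (1.03%) and 19 shared peaks (0.828%). The highest of these members were at n-TLaag8 (9.54), at a region with n-TFgaa3 and n-TNgtt7 (7.80), which is also the Ndufs7 region, and at n-TScga1 (6.80). Long non-coding RNA genes lay within 100 bp of 353 members (12.96%) and 323 shared peaks (14.07%), so neither kind set the groups far apart. The highest was Gm36243 (10.0), which overlaps the Rpgrip1l member. A small nuclear RNA gene (Gm24407, 5.02) and a small nucleolar RNA gene (Snord13, 5.10) were each near 1 member. So were 3 miRNA genes, Mir8112 (4.89), Mir1945 (4.72) and Mir5133 (4.54). Shared peaks near such genes numbered 3 for small nuclear RNA, 0 for small nucleolar RNA and 5 for miRNA. The 709 members outside protein-coding genes lay a median of 33.55 kb from the nearest, and 168 of them were within 1 kb of a long non-coding RNA gene.

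Across chromosomes, members tracked the shared peaks of the library: the share of members was 7.42% on chromosome 1 and 7.05% on chromosome 11, against 6.88% and 7.58% of shared peaks. The X chromosome held 49 members (1.80%) and 24 shared peaks (1.05%), with 4.41% of protein-coding genes.

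Promoter windows under members held fewer cell cycle elements than those under shared peaks of the library. Windows of 300 bases around the start site, 250 before and 50 after, were taken for 17492 protein-coding genes (21263 windows), and members overlapped 1095 of them, shared peaks 1542 and regions in all 6 libraries 377. Each motif was searched on both strands. The E2F element TTTCCCGC was in 1.64% of windows under members (exact 95% interval 0.977% to 2.59%), 6.74% under shared peaks and 11.67% under regions in all 6 libraries, with 1.41% in all promoters. A variant, TTCCCGCC, which can overlap it in the same site, was in 4.57%, 10.31%, 13.26% and 2.85%. The CHR element TTTGAA was in 9.13%, 17.77%, 31.56% and 15.99% in the same order, so members lay below all promoters. The GC box was in 73.5% of windows under members, 74.7% under shared peaks, 73.2% under regions in all 6 libraries and 46.2% of all promoters. The CCAAT box was in 51.5%, 59.1%, 59.95% and 38.2%. Median GC content was 62.67% under members, 61.33% under shared peaks and 56.33% in all promoters.

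The other motifs were counted in the same way. The E-box CACGTG, bound by Myc and Max, was in 11.5% of windows under members, 7.91% under shared peaks, 5.57% under regions in all 6 libraries and 7.83% of all promoters. The E-box CAGCTG, which MyoD can bind, was in 11.8%, 12.0%, 12.2% and 15.6%. ETS sites (CCGGAAG) were in 21.3%, 24.3%, 28.9% and 11.6%. The TATA box (TATAAA) was in 5.84%, 4.80%, 4.78% and 12.6%, and sites for AP-1 (TGANTCA) were in 4.84%, 2.72%, 2.39% and 6.99%. The NRF1 element GCGCATGC was in 5.21% of windows under members, 5.38% under shared peaks, 9.02% under regions in all 6 libraries and 3.52% of all promoters. The YY1 element AAGATGGC was in 5.48%, 5.71%, 2.65% and 3.05% in that order, and the cyclic AMP response element TGACGTCA was in 5.21%, 3.24%, 5.84% and 2.23%. The TEAD element GGAATG was in 9.22%, 11.02%, 12.7% and 13.6%, and the heat shock factor element GAANNTTC was in 5.57%, 6.10%, 5.57% and 7.21%. A match is a description of letters, not a bound site.

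Over the 6 libraries, 17 promoter measures were compared between library-only and shared peaks by exact two-sided sign-flip permutation tests with Benjamini-Hochberg adjustment. None passed an adjusted threshold of 0.05, and the 6 differences are not independent here either. The CHR element averaged 7.86% ± 4.92 of windows under library-only peaks and 23.4% ± 4.30 under shared peaks (SD, n = 6), lower in 6 of 6 libraries (exact p = 0.03125, adjusted p = 0.133). The CCAAT box averaged 41.4% ± 11.1 and 59.4% ± 3.36, also lower in 6 of 6 (exact p = 0.03125, adjusted p = 0.133). The Myc/Max E-box averaged 13.5% ± 6.57 and 7.28% ± 0.498, higher in 6 of 6 (exact p = 0.03125, adjusted p = 0.133), and GC content averaged 65.5% ± 1.59 and 61.9% ± 0.624, higher in 6 of 6 at the same p. The E2F element averaged 2.79% ± 4.46 and 9.25% ± 2.00, lower in 5 of 6 (exact p = 0.0625, adjusted p = 0.212). Library-only windows numbered 1095 in 34 h replicate 2 but 10 to 114 in the others, so the other libraries' shares are coarse.

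**Figure D5:**
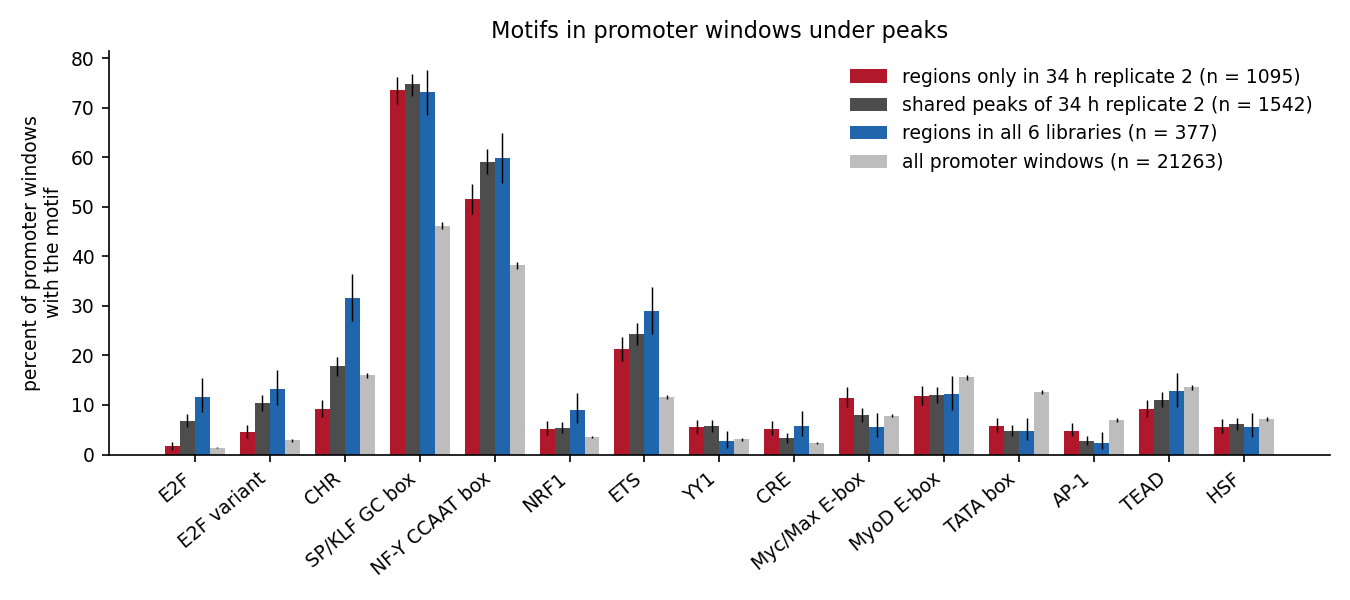
Percent of 300-base promoter windows that hold each motif, with exact 95% intervals, under members (red), shared peaks of 34 h replicate 2 (grey), regions in all 6 libraries (blue) and over all promoters (light grey). E2F and CHR elements are rarer under members than under shared peaks, and GC boxes lie at 73.5% and 74.7% in these against 46.2% of all promoters.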

How the data were processed

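The members and gene lists were chosen with earlier results of these data known. The submitters' processing notes name Subread, MACS2 and the mm10 build, without versions or thresholds. Per the names of the deposited lists, each IP library had its own peak calling with the input of the same time as background. Fold in the deposited lists is a linear ratio of IP to local background. Their significance is deposited as the −log10 of the p-value and of the q-value, and the deposited integer score was not used. Summits in the deposited summit lists matched the peak lists.

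From these, peaks were merged at an overlap of at least 1 bp, leaving out 6 peaks of 34 h replicate 2 on other sequences. The fold and p-value of each peak fix the whole fragments at its summit and the background, solved for 100% of peaks to within 0.001 on the −log10 p scale. Such summit counts, and relative depth, stand in for the read totals that the lists do not give. Genes came from RefSeq on GRCm38.p6, the primary assembly of mm10, with strand from the promoter sequences for 17492 genes. Shared peaks are the library's own peaks in regions of 2 or more libraries. Named regions are the 10 of highest fold, the 10 highest at a boundary, the 5 highest inside and the 5 highest outside genes, up to 5 genes of each list (all where 5 or fewer), the 5 genes with most members, the 3 at each edge of the rule, and the 3 highest of each non-coding kind; Smad5, Smad7 and Hspa5 were named after their values were seen. One library gives no replicate test, so shares carry exact binomial 95% intervals (counting error only). Over libraries, differences were tested by exact sign flips, which take the 6 differences as independent although libraries share regions. Alternatives were other overlaps, significance limits, list lengths, windows and each library left out. Merging, placing and the test were checked on simulated data. Python 3.11.15, pandas 2.3.3, scipy 1.17.1 and statsmodels 0.14.6 were used.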

Additional observations from a re-analysis of the deposited data

How the results depend on the processing

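With each of the 6 lists limited to its strongest peaks, as many as the shortest list has, 136 regions were only in 34 h replicate 2 and 79 genes had one at a boundary, against 2723 and 1368; 49.26% of those 136 lay at a boundary. Under the other alternatives the number of regions lay between 2110 and 3112, and between 2730 and 3547 with 1 of the other libraries left out, the highest without 34 h replicate 1. The share at a boundary was 40.73% with a window of 500 bp, 54.32% with 5 kb, 46.69% at 50% reciprocal overlap and 47.56% when only the 34 h libraries had to lack a peak, and it lay between 44.1% and 46.11% with 1 library left out. The paired difference over libraries passed the threshold of 0.05 with a window of 500 bp, at equal list length, where the summit had to lie in the window, and with the 500 bp rule of presence. It did not with a 5 kb window (−4.755 points, exact p = 0.28125), with peaks limited to a −log10 q from 5 upward (−8.822, exact p = 0.09375) or with equal weight to fold parts (−4.557, exact p = 0.34375). With 1 library left out it lay between −12.58 and −8.273, and the 5 libraries left cannot go below an exact p of 0.0625. Cytosolic ribosomal proteins had 0 genes with a member at equal list length. Of 253 counts of single gene lists under alternatives, 198 stayed within 1.5 times and 55 did not, most of them at equal list length or when only genes with no neighbour within 5 kb were used, where fewer regions or genes enter. Translation factors, the proteasome, heat shock proteins and chaperonins, SR proteins and hnRNPs, and the spliceosome core stayed above the share over all genes in 11 of 11 alternatives. At equal list length this rested on 1 translation factor gene of 69 and 2 proteasome genes of 44, against 0.361% over all genes. Several other lists, such as cytosolic ribosomal proteins and oxidative phosphorylation, were above it in 10 of 11. Cell cycle genes were above it in 1 of 11. The difference over libraries pairs peaks within a library; for pairing 34 h with 14 h libraries by replicate number, no paired analysis was possible because members come from 1 library. Base composition around summits was not run, as no genome sequence was used here. Summits on at least 10 fragments limit every fold, and a site without a listed peak is not shown to be unbound.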
